A study of Mus musculus with 5 samples.

Results

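Mast cells are tissue immune cells that store histamine, heparin and proteases in granules and release them when receptors on their surface are engaged. They arise from blood progenitors, settle in connective tissue such as skin before and after birth, and depend on the receptor Kit. Connective tissue mast cells of the mouse are known by the granule proteases Cpa3 (carboxypeptidase A3), Cma1 (a chymase, also called mast cell protease 5), Mcpt4 (a second chymase) and Tpsb2 (a tryptase), and mucosal mast cells by Mcpt1 and Mcpt2.

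The mast cells described here were chosen from 5 single-cell RNA-seq libraries of C57BL/6N mice, with no altered allele and no agent given in the labels. Of the libraries, 3 came from postnatal day 6 (P6) male penises with the prepuce removed, and 1 each from forelimbs and hindlimbs of male embryos at embryonic day 15 (E15). Every barcode in the files was counted in unique molecular identifiers (UMIs). A cell was kept with 500 to 6000 genes and at most 5% mitochondrial UMIs in penis, or 100 to 9000 genes and at most 10% in limb. A kept cell was taken as a mast cell when at least 2 of *Cpa3*, *Cma1*, *Mcpt4* and *Tpsb2* had a UMI and fewer than 2 of the macrophage genes *C1qa*, *C1qb* and *C1qc* did. This gate held 1905 of 69434 kept cells. The levels of the 4 markers were therefore fixed in part by the choice of cells and are given as a description, with no test. Tissue, age and preparation differed together and cannot be told apart, and each penis library cannot be tied to an animal or litter here. The methods name fewer litters than penis animals, so some animals shared a litter, and several male embryos for the limbs, without saying how these were divided between the limb libraries. The strain and stages above are those of the labels, whereas the study's text gives the substrain C57BL/6J and does not name the limb stage uniformly. P-values therefore measure the spread between these libraries only.

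The kept cells per library numbered between 5720 and 7107 in penis and were 25865 and 23936 in forelimb and hindlimb. Median UMIs per kept cell outside the gate were 8788 to 9904 in penis and 4641 and 5361 in limb. Forelimb and hindlimb shared 1 barcode among their gate cells, and no other pair of libraries shared any. No library stood apart from its group in these measures, but the penis libraries gave only 10, 13 and 11 gate cells, and 1 UMI over the 10 gate cells of the first equals 12.4 CPM, the UMIs of a gene scaled to a common total per library. Forelimb and hindlimb gave 999 and 872.

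For orientation, the 4 genes of the gate lie, in the GENCODE annotation of GRCm38, at chr3:20215620-20242181 on the minus strand (*Cpa3*), chr14:55941451-55944675 on the minus strand (*Cma1*), chr14:56059629-56062313 on the minus strand (*Mcpt4*) and chr17:25366305-25369098 on the plus strand (*Tpsb2*). The tryptase genes *Tpsb2* and *Tpsab1* are related genes on the same chromosome, and the Mcpt genes are a family of related genes. Whether reads of such genes were split or lost in counting was not tested. GATA2, a zinc-finger factor of mast cells and their progenitors, binds short motifs. The motifs AGATAA or AGATAG with a leading A, and TGATAA or TGATAG with a leading T, were searched on both strands in the 250 bases before the RefSeq start of the gate genes and of 14 further mast cell genes. RefSeq windows were found for 15 of these 18 genes, 19 windows in all, of which 12 held a match, beside 26.5% of 32851 windows of the same length over all genes. The windows of 3 gate genes are shown because the gate rests on them, and those of *Mrgprb1* and *Mrgprb2*, receptor genes of mast cells, because their levels set the tissues far apart. They lie on the minus strand of GRCm38.p6 at chr3:20242182-20242431 (*Cpa3*), chr14:55944676-55944925 (*Cma1*), chr14:56062311-56062560 (*Mcpt4*), chr7:48456343-48456592 (*Mrgprb1*), chr7:48558087-48558336 (*Mrgprb2*) and are printed 5′ to 3′ toward the start, with the matches in capitals, which read as the reverse complement where the match is on the other strand. A match describes these letters only.
Cpa3: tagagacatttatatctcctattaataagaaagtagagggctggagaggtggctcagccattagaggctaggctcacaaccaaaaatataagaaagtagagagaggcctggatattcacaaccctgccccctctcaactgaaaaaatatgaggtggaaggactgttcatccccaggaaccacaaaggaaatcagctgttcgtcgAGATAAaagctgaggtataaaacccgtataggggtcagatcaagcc
Cma1: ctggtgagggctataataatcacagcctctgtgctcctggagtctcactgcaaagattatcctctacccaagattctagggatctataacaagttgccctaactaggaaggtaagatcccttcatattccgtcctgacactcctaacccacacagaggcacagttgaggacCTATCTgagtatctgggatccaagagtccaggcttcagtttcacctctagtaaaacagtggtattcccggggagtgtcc
Mcpt4: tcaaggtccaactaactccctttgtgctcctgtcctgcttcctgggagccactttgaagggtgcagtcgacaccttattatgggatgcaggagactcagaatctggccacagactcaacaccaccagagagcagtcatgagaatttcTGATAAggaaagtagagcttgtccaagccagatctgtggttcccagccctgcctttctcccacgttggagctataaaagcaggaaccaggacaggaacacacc
Mrgprb1: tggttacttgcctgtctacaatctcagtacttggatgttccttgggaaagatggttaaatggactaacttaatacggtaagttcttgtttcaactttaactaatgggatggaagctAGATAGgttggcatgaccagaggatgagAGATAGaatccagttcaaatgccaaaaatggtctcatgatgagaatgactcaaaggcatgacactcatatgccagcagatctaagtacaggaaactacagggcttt
Mrgprb2: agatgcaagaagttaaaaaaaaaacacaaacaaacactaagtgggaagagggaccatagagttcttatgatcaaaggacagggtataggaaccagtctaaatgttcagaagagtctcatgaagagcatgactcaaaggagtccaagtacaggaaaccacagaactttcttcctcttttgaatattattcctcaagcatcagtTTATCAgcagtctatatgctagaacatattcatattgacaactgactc

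The gate joined cells of unlike content, and their other genes changed with the number of marker UMIs. Of the 34 penis gate cells, 14 had 100 or more UMIs of the 4 markers, 4 had 10 to 99 and 16 had 2 to 9. Of the 1871 limb gate cells, 1139 had 100 or more, 122 had 10 to 99 and 610 had 2 to 9. Identity was checked with 14 mast cell genes outside the gate (*Kit*, *Ms4a2*, *Fcer1a*, *Tpsab1*, *Hdc*, *Gata2*, *Hpgds*, *Mrgprb1*, *Mrgprb2*, *Cd200r3*, *Slc18a2*, *Srgn*, *Rab27b* and *Il1rl1*). All 14 penis cells and 1137 of the 1139 limb cells at 100 or more marker UMIs had a UMI of at least 5 of them. At 2 to 9 marker UMIs this held for 1 of 16 cells in penis and 5 of 610 in limb. The 4 penis cells with 10 to 99 marker UMIs had at most 2 identity genes, whereas 96 of the 122 limb cells in that range had at least 5.

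The cells under 10 marker UMIs therefore went against the label by these genes. They held 63.6%, 44.9% and 47.2% of the gate's UMIs in the penis libraries, and 34.3% and 31.9% in forelimb and hindlimb. Cells outside the gate had a UMI of *Cma1* in 9.80% of forelimb and 8.20% of hindlimb cells, and in 0.507 to 0.823% of penis cells. Endothelial cells, taken by their own markers, held *Cma1* in 12.7% and 12.8% of limb cells at median depths of 6238 and 7738 UMIs. The part of free RNA in the gate was not tested. Values are therefore also given for the cells with 10 or more marker UMIs, a limit set after the data were seen, which are called marker-rich below. There were 4, 8 and 6 in penis and 668 and 593 in limb, 1279 in all.

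**Figure D1:**
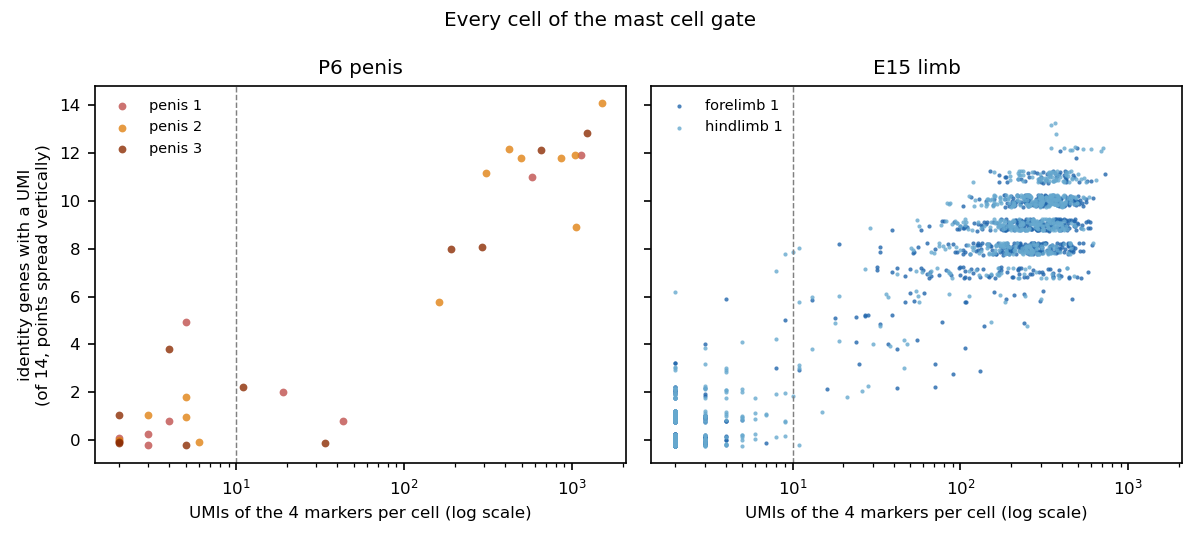
Each point is 1 cell of the gate, with its UMIs of the 4 markers on a log axis and its number of identity genes with a UMI out of 14 (spread vertically). The dashed line stands at 10 marker UMIs. Of 14 penis and 1139 limb cells with 100 or more marker UMIs, 14 and 1137 had at least 5 identity genes, and cells left of the line rarely did.

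At the edge of the gate, the forelimb held 4195 kept cells with 1 marker detected, of which 1.10% had at least 3 identity genes, and 360 with 2 markers, of which 11.9% did. With 3 markers the number was 463 cells and the share 97.8%. In hindlimb the shares were 1.67%, 18.5% and 93.4% for 1, 2 and 3 markers. The step in both limbs lay between 2 and 3 markers.

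The marker combinations also differed. Of the limb gate cells, 461 in forelimb and 437 in hindlimb had *Cpa3*, *Cma1* and *Tpsb2* without *Mcpt4*, and 176 and 133 had all 4. In the penis libraries 4, 9 and 6 gate cells had all 4, and no cell had the other 3 markers without *Mcpt4*.

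Mast cells were a far smaller share of the penis than of the limb suspensions. The gate took 0.147%, 0.183% and 0.192% of kept penis cells, with 95% exact binomial intervals from 0.0705 to 0.344% over the libraries. It took 3.86% (3.63 to 4.10%) of forelimb and 3.64% (3.41 to 3.89%) of hindlimb cells. Intervals here cover counting error only. The mean was 0.174% ± 0.0240 (SD, n = 3) in penis and 3.75% over the 2 limb libraries, with no overlap. A two-sided exact permutation test over the 10 ways to split the libraries gave p = 0.1, the smallest it can give. The marker-rich cells alone made up 0.0588%, 0.113% and 0.105% in penis and 2.58% and 2.48% in limb. Within each tissue the intervals of the libraries overlapped. A share also moves with the number of all other cells in a suspension.

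**Figure D2:**
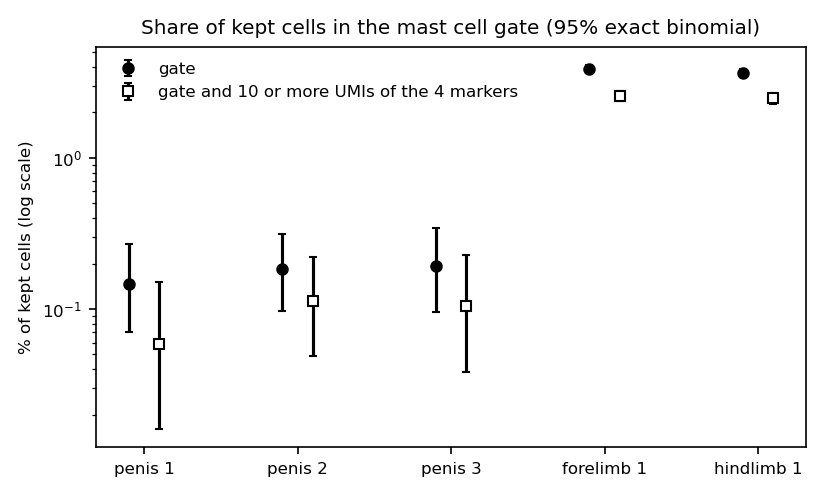
Share of kept cells in the gate (filled) and in the gate with 10 or more marker UMIs (open), in percent on a log axis, for each library, with 95% exact binomial intervals. The penis libraries stand at 0.147 to 0.192% and the limb libraries at 3.64 and 3.86% for the whole gate.

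Among the gate genes, *Mcpt4* set the tissues furthest apart. Summed over the marker-rich cells, *Mcpt4* stood at 15946, 40966 and 12920 CPM in the penis libraries and at 497 and 353 CPM in forelimb and hindlimb. Every marker-rich penis cell held a *Mcpt4* UMI, against 26.5% in forelimb and 22.8% in hindlimb. *Cma1* stood at 27599, 48991 and 26098 CPM in penis and 12624 and 10891 CPM in limb. *Tpsb2* had 7019, 21961 and 8005 CPM in penis and 3956 and 2889 CPM in limb. *Cpa3* overlapped in these sums, with 9847, 20983 and 9152 CPM in penis and 10952 and 9148 CPM in limb. The sums of the first penis library (29349 UMIs) and of the third (42723 UMIs) rest mostly on cells with at most 2 identity genes, which held 748 and 18570 UMIs in the first and 10743 and 14627 in the third. The second library had no such marker-rich cell. The cells with 10 or more *Mcpt4* UMIs leave these out. They were 2 of 4, 8 of 8 and 4 of 6 marker-rich cells in penis, but 69 of 668 and 54 of 593 in limb. In them *Cpa3* stood at 27614, 20983 and 21956 CPM in penis and 11879 and 11018 CPM in limb. *Cma1* stood at 78257, 48991 and 62986 CPM and 18886 and 19005 CPM. Neither gene overlapped there, but the cells were chosen by another gate gene and are unlike subsets, so this is a description only. In the fit over all gate cells the log2 difference, penis over limb, was 5.56 for *Mcpt4*, 1.29 for *Cma1*, 1.65 for *Tpsb2* and 0.17 for *Cpa3*.

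The share of a cell's UMIs from the 4 markers was in part set by the choice of cells. In cells with 100 or more marker UMIs, their median share of a cell's UMIs was 17.8%, 12.2% and 13.4% in the penis libraries and 3.45% and 2.89% in forelimb and hindlimb. Single cells ranged from 6.60 to 19.5% in penis and from 0.292 to 15.5% in limb, so the tissues overlapped. The richest penis cell, in the second library, held 263 *Cpa3*, 561 *Cma1*, 415 *Mcpt4* and 259 *Tpsb2* UMIs among 8115, and a UMI of all 14 identity genes. A penis cell of 748 UMIs with 43 of the markers had 1 identity gene.

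The gate held nearly all RNA of its markers. Between 85.1% and 98.9% of each gene's UMIs over the kept cells fell in the gate in the penis libraries, and 93.1 to 97.2% in the limb libraries. *Cpa3* in the third penis library had the lowest share. These markers define the gate, so their share does not show that it held every mast cell. Outside it, 5, 8 and 12 kept penis cells and 37 and 29 limb cells had at least 5 identity genes. Inside it, such cells at 100 or more, 10 to 99 and 2 to 9 marker UMIs were 14, 0 and 1 in penis. In limb they were 1137, 96 and 5. What the cells outside were was not tested.

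Outside the gate genes, the limb mast cells had the profile of the lineage. A UMI of *Hdc*, the enzyme that makes histamine, was found in 99.6% of marker-rich forelimb and 99.3% of hindlimb cells, against 3.61% of other kept forelimb cells. *Kit*, the stem cell factor receptor, was found in 96.0% and 97.3%. *Srgn*, the core protein that carries granule heparin, was found in 99.6% and 99.5%, and *Gata2* in 93.7% and 94.9%. *Fcer1a*, the IgE-binding chain of the high-affinity IgE receptor, was found in 1.35% of both, although its partner chain *Fcer1g* stood at 1372 and 1346 CPM. The second partner *Ms4a2* was found in 40.3% and 48.4%. Among marker-rich penis cells *Hdc* was found in 2 of 4, 8 of 8 and 4 of 6, and *Kit* in 2 of 4, 7 of 8 and 4 of 6. Among penis cells with 10 or more *Mcpt4* UMIs, *Hdc* was found in 2 of 2, 8 of 8 and 4 of 4, and *Kit* in 2, 7 and 4.

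Compared with all other kept cells of the same library, and with 5 CPM added to both sides, 41 of 17059 genes (0.24%) were at least 4 times higher in the gate cells of every library, and 37 of these were not gate genes. Of 17059 genes, 5 (0.0293%) were at least 4 times lower in every library, all from the macrophage list of 12. These 5 include the C1q genes that the gate itself used. No test was made of the gate against the rest. Outside the gate genes, the list is led by *Hdc*, whose smallest fold over the 5 libraries was 51.5. It is followed by *Cyp11a1*, the enzyme that starts steroid synthesis from cholesterol, at 45.6, and by *Serpinb1a*, an inhibitor of granule proteases, at 20.5. *Cyp11a1* stood at 396, 1078 and 371 CPM in the penis gate cells and 302 and 313 CPM in limb, and between 0.8 and 2.0 CPM elsewhere. Its level was high in the gate cells of both tissues.

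Further genes of this list fall into familiar groups. Receptors included *Adora3* (adenosine receptor, smallest fold 15.3), *Cd200r3* (14.7), *Il1rl1* (receptor of the cytokine IL-33, 13.8), *Il18r1* (8.68), *Kit* (8.06) and *Ms4a2* (7.83). Regulators of G-protein signalling were *Rgs18* (11.2) and *Rgs13* (8.17). Amine genes were *Slc18a2*, which loads amines into granules (7.96), and *Tph1*, which starts serotonin synthesis (7.83). *Il4*, a type 2 cytokine, was at 7.46 and stood at 61.9, 276 and 49.4 CPM in the penis and 150 and 163 CPM in the limb gate cells. *Rac2*, *Lat2*, *Samsn1*, *Rab44*, *Ap1s3*, *Slc45a3*, *Gm47599*, the protease *Prss34* (5.92), *Srgn* (15.1) and the factors *Myb* (7.98) and *Gata2* (6.77) completed the 25 genes outside the gate with the highest smallest fold. The smallest fold of *Prss34*, that of the first penis library, rested on 2 UMIs.

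**Figure D3:**
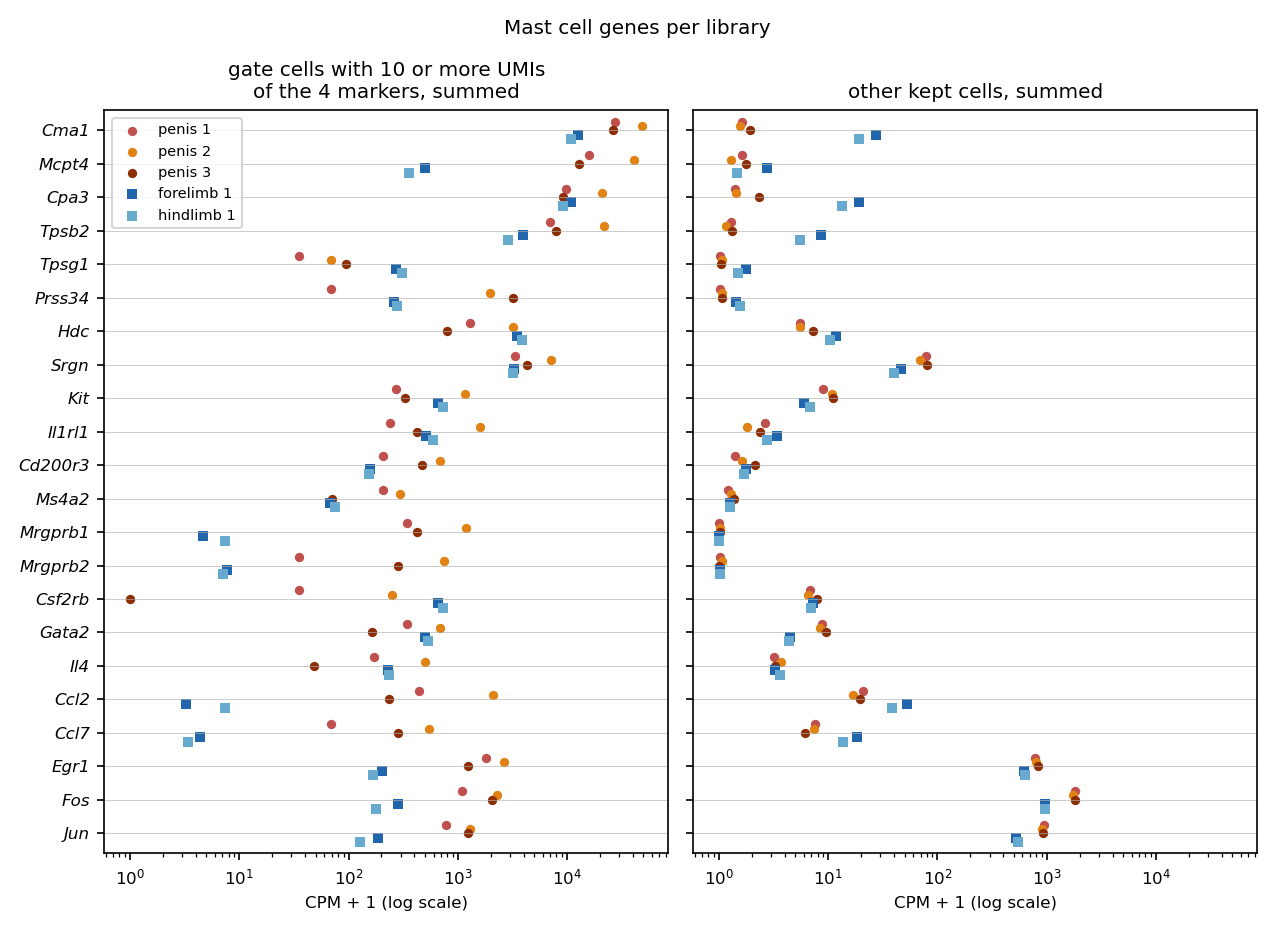
CPM plus 1 on a log axis for mast cell genes, summed over the marker-rich cells (left) and over all other kept cells (right) of each library, circles for penis and squares for limb. A point at 1 had no UMI. *Mcpt4*, *Mrgprb1* and *Mrgprb2* are higher in all penis libraries than in both limb libraries on the left.

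The mast cells of the 2 limb libraries were set side by side. Among the 14 identity genes in marker-rich cells, the ratio of forelimb to hindlimb lay between 0.825 and 1.09 for all but *Mrgprb1*, which had 3.64 and 6.42 CPM. The gate genes were higher in forelimb by 1.16 to 1.41 times. Of 7167 genes with at least 200 UMIs, 45 (0.628%) differed by at least 2 times. All but *Pcdh15* and *Ccl21a* of these were higher in forelimb. Among them were *Acta2*, a smooth muscle actin, at 95.4 and 10.9 CPM, and *Postn*, a matrix gene of fibroblasts, at 138 and 61.8 CPM. In the other kept cells *Acta2* stood at 81.2 and 65.0 CPM and *Postn* at 538 and 458 CPM. Whether the mast cells made this RNA was not tested. *Mcpt1*, a mucosal mast cell chymase, stood at 45.8 and 16.7 CPM. With 1 library per limb there is no test of these differences.

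The penis and limb gate cells were then compared by edgeR over the summed counts of 3 against 2 libraries. Of 1756 genes tested, penis gate cells were higher for 18 (1.03%) and lower for 2 (0.114%) at an adjusted p under 0.01 and an absolute log2 fold-change over 1. The filter needed about 124 CPM in 2 or more libraries, since penis sums were small. Of the 18 higher genes, 13 reached that level in penis only, and the 2 lower genes reached it in limb only, so these had to differ in order to be tested, and their p-values are no independent support. The other 5 reached it in both tissues (*Fos*, *Jun*, *Igfbp4*, *Cmss1* and *Mir99ahg*). Genes of the lists below that reached it in 1 tissue only also had to differ to be tested, and these were *Mrgprb2*, *Ccl2*, *Ccl7* and *Cxcl12* in penis, and *Tpsg1*, *Gzmb*, *Cd44*, *Mgat5* and the division genes *Top2a*, *Mki67*, *Birc5* and *Ube2c* in limb. Every one of the 20 had no overlap between the groups. Groups without overlap were common among all tested genes, with 20.2% entirely higher in penis and 35.6% entirely lower.

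One receptor gene of mast cells was among the called genes, *Mrgprb1*, of the Mas-related family. It stood at 136, 652 and 222 CPM in the penis gate cells and at 2.5 and 4.4 CPM in limb (log2 fold-change 6.76 ± 0.75 SE, edgeR adjusted p = 0.0076). The SE of a fold-change, here and below, is its absolute value divided by the square root of the edgeR F statistic. It was not estimated separately and may be too small for genes with few UMIs in a group. In other kept cells *Mrgprb1* was at 0.0 CPM to the first decimal in all 5 libraries. Among marker-rich cells a UMI was seen in 2 of 4, 7 of 8 and 3 of 6 penis cells and in 1.20% and 2.19% of limb cells. *Mrgprb2*, the receptor through which peptides and many drugs activate mouse connective tissue mast cells, lay beside it. It had 12.4, 426 and 148 CPM in penis and 4.4 and 4.3 CPM in limb, with a log2 fold-change of 5.67 ± 1.12 and an edgeR adjusted p of 0.0196, which misses the limit. Both genes passed the filter only through the penis libraries, and the first penis library held 1 *Mrgprb2* UMI.

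*Ramp1*, the partner of the calcitonin-like receptor, stood at 173, 238 and 136 CPM in penis and 13.8 and 11.4 CPM in limb (4.01 ± 0.48, adjusted p = 0.0096). It was also called higher in other kept cells, at 96.8, 93.8 and 92.8 CPM in penis and 9.6 and 7.2 CPM in limb (3.34). The interaction for *Ramp1*, described below, was 0.39 (edgeR adjusted p = 0.611). *Apoe*, a lipid carrier, stood at 1772, 1078 and 1247 CPM against 50.4 and 53.8 CPM (4.85 ± 0.28, adjusted p = 0.0010). The immediate early genes *Fos* and *Jun* rose by 2.17 ± 0.22 and 2.12 ± 0.22 (adjusted p = 0.0051 and 0.0060). *Fos* had 2552, 1906 and 1717 CPM against 527 and 481 CPM. The thioredoxin regulator *Txnip* (3.27), the nucleolar protein gene *Cmss1* (2.38) and the redox gene *Nxn* (1.85) were also called.

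Further called genes were *Enpp2* (5.24), *Serpinf1* (4.00), *Hs6st3* (3.93), *Pid1* (3.19), *Plpp3* (3.13), *Mmp2* (2.82), *Igfbp4* (2.62), *Arhgap24* (2.42) and *Mir99ahg* (2.08). Of the 18 higher genes, 14 were called higher in the other kept cells too, where 2806 of 21635 genes (13%) were. In 8 of the 18, at least 1 penis library had no UMI in its marker-rich cells. *Hs6st3* had no UMI in any marker-rich penis cell. In a fit of the marker-rich cells alone, 16 of 739 genes were called higher (2.17%) and 2 lower (0.271%), and 5 of the 18 and 1 of the 2 were among them. These were *Mrgprb1*, *Apoe*, *Ramp1*, *Fos*, *Jun* and, lower, *Nme1*. *Serpinf1*, *Plpp3*, *Igfbp4*, *Cmss1* and *Mir99ahg* were tested there and not called, although their log2 fold-changes of 4.72, 3.17, 2.67, 2.57 and 2.30 were no smaller than in all gate cells.

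The 2 lower genes were *Hist1h1b*, a linker histone made in dividing cells, and *Nme1*, a nucleotide kinase. *Hist1h1b* had 12.4, 0.0 and 12.4 CPM in penis and 305 and 342 CPM in limb (fell by 5.13 ± 0.46 on the log2 scale, adjusted p = 0.0035). *Nme1* had 61.9, 50.1 and 74.1 CPM and 400 and 415 CPM (fell by 2.56 ± 0.29, adjusted p = 0.0081). Both were called lower in the other kept cells, where 11.1% of genes were. In the marker-rich cells *Nme1* was called, and *Hist1h1b* was not, at -3.92 with an edgeR adjusted p of 0.0311.

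**Figure D4:**
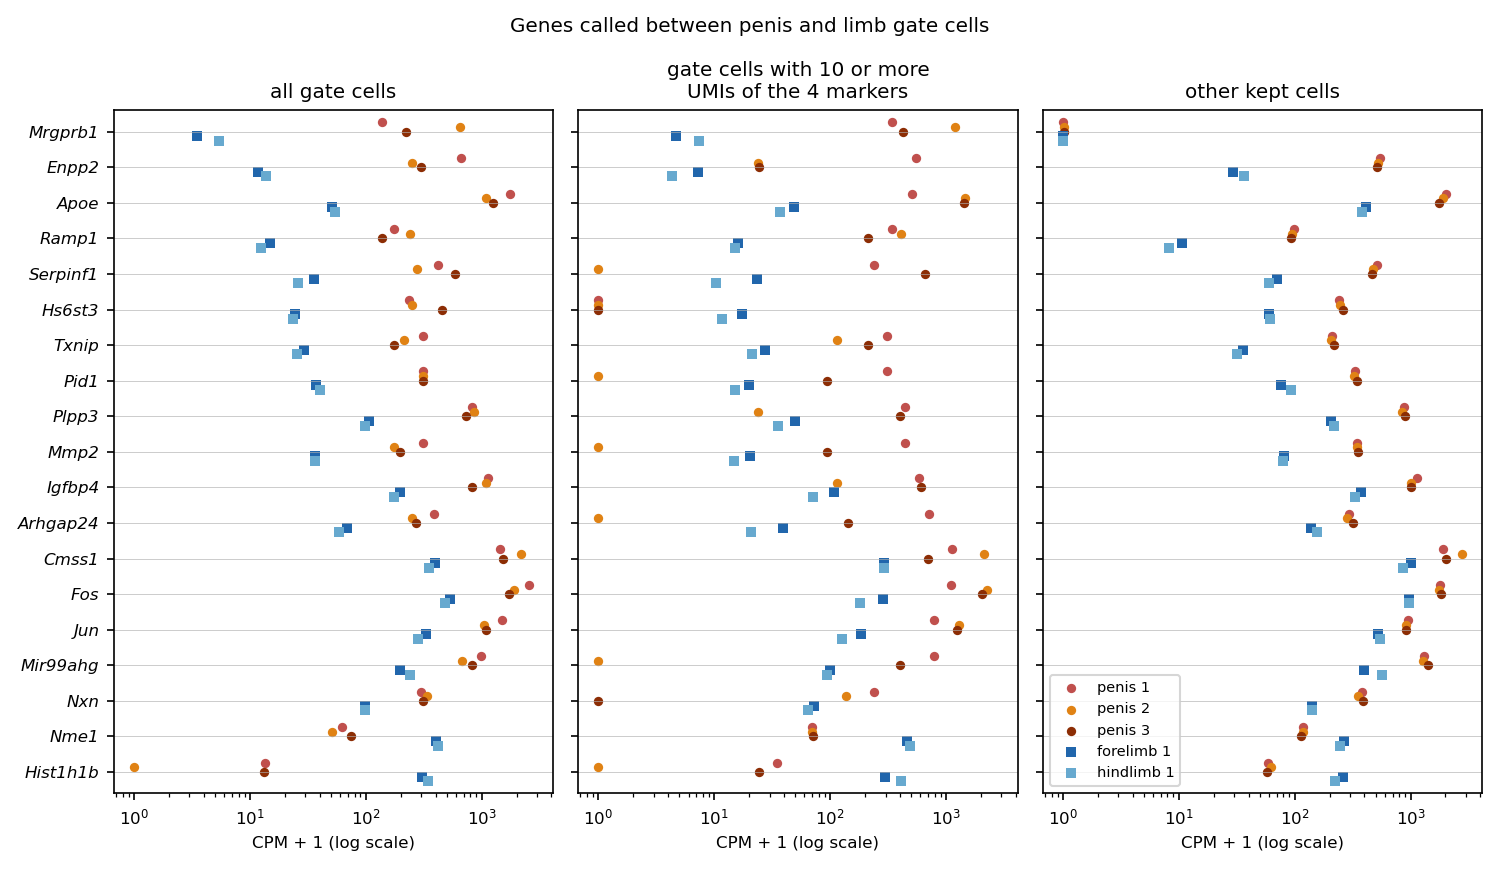
CPM plus 1 on a log axis for called genes in all gate cells (left), in the marker-rich cells (middle) and in the other kept cells (right) of each library, circles for penis and squares for limb. A point at 1 had no UMI. *Mrgprb1* is high only in the left and middle panels, whereas *Enpp2* and *Hs6st3* are as high in the other kept penis cells.

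The call counts depended on the gate. With at least 3 of the 4 markers, a stricter gate with fewer of the marker-poor cells, 64 of 1557 genes were higher (4.11%) and 23 lower (1.48%), including 15 of the 18 and both of the 2. The 64 hold *Mcpt4*, a gate gene, which is a description only. Leaving out either limb library left 0 calls in both directions by edgeR, with 329 and 271 genes at an unadjusted p under 0.05, and in those fits 1 limb library stands for its tissue.

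Proteases and granule genes were compared as groups. These and the lists after them were fitted over all gate cells, marker-poor ones included. Of 11 mast cell protease genes outside the gate, 4 could be tested and 0 were called, at a median log2 fold-change of -0.66 beside 0.01 over all tested genes. At an adjusted p under 0.05, which 13.7% of tested genes passed as higher and 8.2% as lower, 2 were lower. *Tpsg1*, the transmembrane tryptase, had 12.4, 37.6 and 49.4 CPM in penis and 177 and 210 CPM in limb, a log2 fold-change of -2.39 (edgeR adjusted p = 0.0165), and was called under the stricter gate (-2.47, adjusted p = 0.0096). *Gzmb*, a granzyme of cytotoxic and some mast cells, had no UMI in the penis gate cells and 140 and 148 CPM in limb, at least 11.6-fold lower against a floor of 3 counts over the penis group (adjusted p = 0.0165 in edgeR). The list's median stays the same with *Gzmb* at that bound. The mucosal protease genes *Mcpt1* and *Mcpt2* had 0 and 1 UMI in all penis gate cells, and in limb 30.1 and 11.4 CPM for *Mcpt1* and 65.6 and 37.9 CPM for *Mcpt2*.

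Of 17 granule and amine genes, 7 were tested, with 0 called and 0 at an adjusted p under 0.05, and a median of -0.68. *Hdc* stood at 483, 1768 and 753 CPM in penis and 2307 and 2664 CPM in limb, groups that did not overlap (-1.13 ± 0.53, edgeR adjusted p = 0.160). These sums and the list's median include the marker-poor cells, which held a larger part of the gate's UMIs in penis than in limb. In cells with 10 or more *Mcpt4* UMIs, *Hdc* stood at 3788, 3205 and 1959 CPM in penis and 4273 and 5204 CPM in limb. The penis values there rest on 2, 8 and 4 cells. *Rab27b*, a granule transport GTPase, was at 61.9, 414 and 124 CPM and 746 and 907 CPM (-1.88 ± 0.64, edgeR adjusted p = 0.0791). *Srgn* overlapped between the tissues.

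Receptors gave 8 tested of 25, with *Mrgprb1* called. *Csf2rb*, the shared chain of the IL-3, IL-5 and GM-CSF receptors, had 12.4, 138 and 136 CPM in penis and 433 and 501 CPM in limb (-2.12 ± 0.60, edgeR adjusted p = 0.0495). *Kit* overlapped, at 99.1, 639 and 235 CPM in penis and 432 and 498 CPM in limb. Receptor signalling gave 6 tested of 19 and 0 called. The kinase gene *Fyn* had 111, 138 and 98.8 CPM and 336 and 343 CPM (-1.39 ± 0.27, edgeR adjusted p = 0.0192). Of 17 transcription factor genes, 8 were tested, 0 passed at either limit, and the median was 0.53. None of the 8 eicosanoid enzyme genes reached the filter.

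Of 20 cytokine and chemokine genes 4 were tested, 0 were called, and *Ccl2* and *Ccl7* passed at 0.05. *Ccl2*, which attracts monocytes, had 161, 1166 and 124 CPM in penis and 5.1 and 8.8 CPM in limb (6.29 ± 1.14, edgeR adjusted p = 0.0167). *Ccl7* had 24.8, 301 and 148 CPM and 2.7 and 2.5 CPM (6.08 ± 1.09, edgeR adjusted p = 0.0165). Both were called under the stricter gate, at 7.16 and 6.25 with edgeR adjusted p of 0.0075 and 0.0096. In the other kept cells their log2 fold-change was -1.46 for each, so their direction there was the reverse. *Il13* had 22 UMIs in the second penis library, 1 in the first and 0 in the third. *Il5* and *Il9* had no UMI in any marker-rich cell.

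Of 14 adhesion genes 5 were tested and 0 called. *Cd44*, a hyaluronan receptor, had 37.2, 50.1 and 61.8 CPM and 207 and 188 CPM (-1.84 ± 0.30, edgeR adjusted p = 0.0135). Of 13 stress and immediate early genes 10 were tested, and *Fos* and *Jun* were called. *Egr1* had 1573, 1918 and 1037 CPM in penis and 366 and 327 CPM in limb (2.28 ± 0.30, edgeR adjusted p = 0.0112), and *Ier2* also passed at 0.05. Both were called under the stricter gate, at 3.23 and 1.77 with edgeR adjusted p of 0.0069 and 0.0096. *Ier3* went the other way, with 198, 226 and 371 CPM and 874 and 909 CPM (-1.59 ± 0.32, edgeR adjusted p = 0.0200). In the other kept cells *Fos*, *Jun* and *Egr1* differed by 0.74, 0.63 and 0.22 in the same direction.

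Markers of other cells were measured in the same sums. Of 12 macrophage genes none could be tested. *C1qa*, *C1qb* and *C1qc* were at 0.0 CPM in the marker-rich penis cells and at most 1.49 CPM in limb. The gate itself left out cells with 2 or more of these 3 genes, so their low level does not measure macrophage content. It left out 23 forelimb and 40 hindlimb cells that had at least 2 of the mast cell markers, and 0 in each penis library. *Cx3cr1*, a gene of the list that the gate did not use, was found in 54.6% and 66.4% of marker-rich limb cells. In the penis libraries it was found in 0 of 4, 5 of 8 and 2 of 6. The summed level of 7 fibroblast genes, which included collagens, was 9643, 523 and 43536 CPM in the marker-rich penis cells and 2724 and 1422 CPM in limb. The sums of the first penis library and of the third are those made mostly of cells with at most 2 identity genes. It was 7884, 38824 and 23116 CPM in the penis cells under 10 marker UMIs. All 7 were tested, 0 were called, and 3 passed at 0.05 as higher in penis, at a median of 2.24. The summed level of 8 red blood cell genes was 239, 409 and 99876 CPM in the marker-rich penis cells and 3949 and 5709 CPM in limb, 4 were tested and 0 passed. In the penis cells under 10 marker UMIs it was 214, 70157 and 288 CPM, and in all gate cells, which entered the comparison, 223, 31693 and 52838 CPM in penis and 12421 and 14517 CPM in limb. The highest library for both lists was thus the third among marker-rich cells and the second among the others. Their part in the comparison was not tested.

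Lists of basophil (6 genes), neutrophil and myeloid progenitor (8), lymphoid (6), megakaryocyte (5), endothelial (4), keratinocyte (3), muscle (4) and glial (3) genes had 3, 0, 0, 0, 0, 0, 0 and 0 genes tested, with 0 called in each. Basophils share *Prss34* and *Cd200r3* with mast cells. *Mcpt8*, the basophil protease, had 0.0, 0.0 and 23.4 CPM in marker-rich penis cells and 27.2 and 37.3 CPM in limb. *Sox10*, a factor of glial cells, had no UMI in marker-rich penis cells.

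To ask whether a tissue difference belonged to the mast cells, the penis to limb difference in the gate was set against that in the other kept cells of the same libraries, in 1 model with a term for each library. Of 1756 genes, 4 (0.228%) were higher by this measure and 2 (0.114%) lower. *Cma1*, a gate gene, is among the 4 and is left as a description. *Apoe* was among the others. Its log2 fold-change was 4.85 in gate cells and 2.09 in other cells, where it stood at 2003, 1903 and 1750 CPM in penis and 416 and 378 CPM in limb (interaction 2.48 ± 0.21, edgeR adjusted p = 0.0052). *Apoe* was lower in the gate cells than in the other cells of every library, by more in limb than in penis. *Apoe* was tested only through its penis level and *Mgat5*, below, only through its limb level, so their interaction p-values are no independent support either. Its interaction call was lost with at least 3 markers (2.33, edgeR adjusted p = 0.0529), in marker-rich cells (2.66, adjusted p = 0.0694) and without either limb library. *Gm42418*, a locus that overlaps ribosomal RNA, had an interaction of 1.31, and its call was lost with RLE scaling (1.40, edgeR adjusted p = 0.0133), with at least 3 markers (1.58, adjusted p = 0.0211), in marker-rich cells (1.43, adjusted p = 0.118) and without any 1 library (adjusted p from 0.0975 to 0.380).

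*Mgat5*, which builds branched N-glycans, was lower. It had 0.0, 25.1 and 37.1 CPM in the penis gate cells and 385 and 549 CPM in limb, against 57.3, 56.4 and 62.0 CPM and 30.4 and 39.3 CPM in other cells (interaction -5.19 ± 0.40, edgeR adjusted p = 0.0052). In marker-rich cells 1 of 18 penis cells held a *Mgat5* UMI. Its own penis to limb test gave -4.34 with an edgeR adjusted p of 0.0112, outside the limit, and it was called under the stricter gate (-4.34, adjusted p = 0.0072). *Maob*, a monoamine oxidase, had an interaction of -4.36. Its other cells stood at 58.6, 58.1 and 62.4 CPM in penis against 3.5 and 2.9 CPM in limb. In the gate cells *Maob* did not pass, at 124, 288 and 346 CPM and 278 and 301 CPM. *Prss34*, a serine protease of mast cells and basophils, had an interaction of 5.56, yet its gate levels overlapped at 24.8, 1103 and 1692 CPM in penis and 170 and 189 CPM in limb. Its interaction call was lost in marker-rich cells (5.89, edgeR adjusted p = 0.0153), whereas those of *Mgat5* and *Maob* were kept there. Without either limb library the calls of all 3 were lost. *Prss34* was found in 1 of 4, 3 of 8 and 3 of 6 marker-rich penis cells, and in other kept cells it stayed under 0.7 CPM. In the first library that cell had 1 to 9 *Mcpt4* UMIs and at most 2 identity genes, and 0 of its 2 cells with 10 or more *Mcpt4* UMIs held *Prss34*. The fold of *Prss34* in gate cells alone was 2.59 (edgeR adjusted p = 0.145). At the low levels of the other kept cells it was -3.37, so much of the interaction rests on values near 0.0 CPM.

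Division was read as 2 or more of 21 cell cycle genes with a UMI after thinning each cell to 2000 UMIs. In limb, 450 of 942 forelimb gate cells (47.8%, interval 44.5 to 51.0%) and 471 of 858 hindlimb gate cells (54.9%, 51.5 to 58.3%) passed. Other kept cells passed in 36.7% and 34.8%, the macrophage gate in 49.8% and 47.8% and the endothelial gate in 56.2% and 55.7%. In penis 2 of 8, 0 of 12 and 3 of 9 gate cells passed, against 12.1 to 12.2% of other cells. Among these gate cells, those under 10 marker UMIs passed in 1 of 5, 0 of 4 and 2 of 4. Marker-rich penis cells passed in 1 of 3, 0 of 8 and 1 of 5. In a separate random thinning, penis cells with 10 or more *Mcpt4* UMIs passed in 0 of 2, 0 of 8 and 0 of 3. Over all gate cells the penis mean was 19.4% ± 17.3 (SD, n = 3) and the limb mean 51.3%, with no overlap between the groups (difference -31.9 percentage points, exact two-sided permutation p = 0.2). Penis counts this small hold intervals up to 70.1%. Relative to the other cells of each library, the excess was 7.26 points ± 17.4 in penis and 15.6 points in limb (exact permutation p = 0.9), and the values of the tissues overlapped at this setting. For marker-rich cells the excess was 5.59 points ± 16.8 in penis and 17.6 points in limb (exact permutation p = 0.4). Over all gate cells without thinning, the difference in excess was -27.0 points. With at least 3 division genes it was -12.5 points, each at an exact permutation p = 0.1, the smallest this test can give. With thinning but without the second penis library, the sign of the difference turned, to 1.44 points. Without thinning, 50%, 23.1% and 45.5% of penis gate cells passed.

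Of the 21 division genes, 5 were tested, 0 were called and 4 were lower at an adjusted p under 0.05, at a median of -3.18. The 4 lower genes reached the filter's level in limb only, so this count and median are no support. *Top2a*, a topoisomerase of dividing cells, had 24.8, 0.0 and 49.4 CPM in penis and 298 and 278 CPM in limb (-3.38 ± 0.47, edgeR adjusted p = 0.0112). In other cells *Top2a* differed by -1.56.

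**Figure D5:**
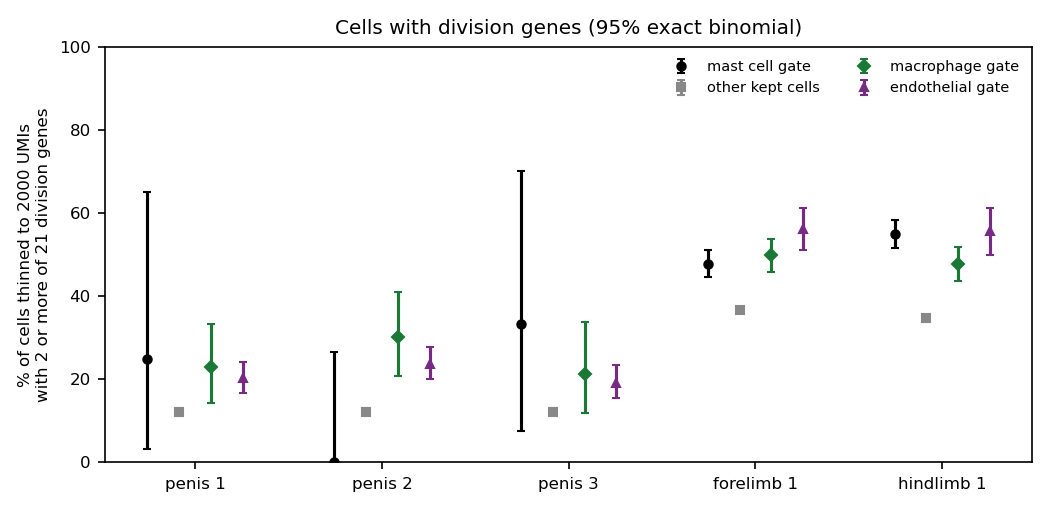
Share of cells with 2 or more of 21 division genes after thinning to 2000 UMIs, in percent, for the mast cell gate, other kept cells, the macrophage gate and the endothelial gate of each library, with 95% exact binomial intervals. Limb gate cells stand at 47.8 and 54.9%, and the penis intervals are wide because 8, 12 and 9 cells entered.

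Within the limb, *Mcpt4* was uneven among mast cells. Marker-rich cells with 10 or more *Mcpt4* UMIs numbered 69 in forelimb and 54 in hindlimb and held 90.2% and 90.7% of its UMIs. They had *Cma1* at 18886 and 19005 CPM, against 11674 and 9542 CPM in cells with no *Mcpt4* UMI, and *Tpsb2* at 6710 and 5434 CPM against 3587 and 2456 CPM. *Cpa3* was near level at 11879 and 11018 CPM against 11120 and 8691 CPM. The shares with division genes were 39.7% (28.0 to 52.3%) and 31.5% (19.5 to 45.6%) in these cells, and 50.2% (45.6 to 54.8%) and 58.4% (53.7 to 63.0%) in the cells without *Mcpt4*. These intervals cover the counting of cells within 1 library per limb, and cells are not replicates. *Mrgprb1* was found in 2 of 69 (2.90%) and 3 of 54 (5.56%) of the *Mcpt4*-rich cells. In those without it was found in 3 of 491 (0.611%) and 6 of 458 (1.31%). Cells with 1 to 9 *Mcpt4* UMIs had it in 3 of 108 and 4 of 81. In hindlimb its level there was 25.1 CPM, above the 11.1 CPM of the *Mcpt4*-rich cells, so these few cells show no clear order. *Mgat5* did not follow this split, at 662 and 968 CPM against 569 and 776 CPM. These cells were grouped by a measured gene, and no test was made.

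Ligands of mast cells were read in the other kept cells. *Kitl*, the ligand of Kit, stood there at 39.2, 40.3 and 43.7 CPM in penis and at 125 and 121 CPM in limb (log2 fold-change -1.74 ± 0.05, edgeR adjusted p = 8.2e-08), and 11.1% of genes were called lower there. Summed with *Il33*, *Il3*, *Tslp* and *Cxcl12*, the 5 ligands were at 212, 209 and 211 CPM in penis and 224 and 200 CPM in limb, which overlapped. In the gate cells 1 of the 5 could be tested, *Cxcl12*, at 136, 113 and 161 CPM in penis and 40.5 and 28.5 CPM in limb (2.14, edgeR adjusted p = 0.0206). Summed over marker-rich penis cells, the 5 ligands stood at 0, 0 and 304 CPM, against 370, 475 and 131 CPM in penis cells under 10 marker UMIs. In the first and second penis libraries the *Cxcl12* value thus came only from the marker-poor cells.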

How the data were processed

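The authors aligned reads of 10x Chromium 3′ libraries to mm10 with Cell Ranger 7.0.0 and deposited raw UMI counts per gene and barcode, without normalization, for 32285 genes. Free RNA and doublets were not removed in the counts used here. Scrublet marked 0 to 1.63% of kept cells and under 0.5% in 4 of 5 libraries, where it did not work. In hindlimb it marked 69 of 872 gate cells and 62 of 593 marker-rich cells. Here, counts were summed per library over the gate cells and over the other kept cells, and tested by edgeR 4.0.16 quasi-likelihood (R 4.3.3) with TMM scaling, filterByExpr and Benjamini-Hochberg adjustment. The interaction had the library as a block. The steps were tested on simulated data. CPM are counts scaled to a common total of the sum named. Exact binomial intervals at 95% and exact permutation tests used scipy 1.17.1, and cells were thinned to 2000 UMIs for division. Alternatives were RLE scaling, no filter, DESeq2 1.42.0, stricter gates (the one at 10 marker UMIs added after seeing the data), other cell limits and leaving out each library. The members, the 24 gene lists and the tests were chosen with earlier results of these data known. Named were the gate genes, list members with high levels or large differences, called genes, and the 25 genes outside the gate with the highest smallest fold. Other list members, such as *Cx3cr1*, *Il5* and *Il9*, were chosen after their values were seen. Some genes counted here are not reported by name.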

Additional observations from a re-analysis of the deposited data

Results flagged for a closer look

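The difference between penis and limb in the gate cells departed from that in the other kept cells for 5 genes outside the gate, by the interaction test of edgeR at an adjusted p of 0.0052 each. On the log2 scale the interaction was 5.56 for *Prss34*, 2.48 for *Apoe*, 1.31 for *Gm42418*, -4.36 for *Maob* and -5.19 for *Mgat5*. *Prss34*, *Apoe* and *Gm42418* were relatively higher in the penis gate cells and *Maob* and *Mgat5* relatively lower. For *Prss34* the log2 fold-change was 2.59 in gate cells (edgeR adjusted p = 0.145) and -3.37 in other kept cells, where it stood at 0.57 CPM or less. For *Maob* it was -0.03 in gate cells and 4.05 in other kept cells. *Apoe* and *Mgat5* reached the filter's level in 1 tissue only, so their p-values are no independent support. The calls of *Apoe* and *Gm42418* were lost with at least 3 markers (2.33 and 1.58) and, with that of *Prss34*, in marker-rich cells (2.66, 1.43 and 5.89), and *Gm42418* also with RLE scaling (1.40). The fold of *Apoe* with at least 3 markers was the only one of these below its value above.

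Barcodes that the cell limits left out also passed the gate. With 10 or more marker UMIs there were 6 in the first penis library, 4 in the second, 60 in forelimb and 39 in hindlimb. Over the 3 penis libraries 12 such barcodes stood beside 18 kept cells, and in limb 99 beside 1261.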

How the results depend on the processing

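Shares of mast cells kept their direction in all 13 alternatives run. The difference in excess of dividing cells turned from -8.31 to 1.44 points without the second penis library. It ranged from -15.2 to 1.44 over the libraries left out, and was -27.0 points without thinning. Against 18 higher and 2 lower genes, no filter gave 0 and 0, DESeq2 239 and 115, at least 3 markers 64 and 23, and an adjusted p under 0.05 with no limit on the fold 241 and 144. Leaving out a library gave 0 to 36 higher and 0 to 21 lower, but the filter then kept 13357 to 13413 genes without a penis library and 2398 to 2405 without a limb library, against 1756, so these counts changed with the filter too. Both highest counts came without the second penis library, and both counts of 0 without either limb library. The interaction counts of 4 and 2 became 32 and 17 by DESeq2 and 8 higher with at least 3 markers, and ranged from 0 to 14 for each direction without 1 library. The 41 genes higher than in other cells became 75 with 1 CPM added, 70 with at least 3 markers, 91 with at least 10 marker UMIs (chosen after seeing the data), and 41 to 88 without 1 library, the highest without the first penis library. Without either limb library all 5 interaction calls named were lost. The causes were not tested. Of 280 values of named genes under alternatives, 173 kept their call, 107 kept their direction and 0 reversed. With 10 to 13 gate cells, each penis library limits what low genes can show. Penis and limb libraries could not be paired, since they came from animals of different ages and their replicate numbers do not link them. Only the interaction was paired, between gate and other cells of each library. Whether forelimb and hindlimb came from the same embryos is not stated, so the limb libraries may not be independent.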
